A study of Gossypium hirsutum with 18 samples.

Results

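The proteases and vacuolar processing enzymes described here are the 82 genes, of 11153 that the authors had called in at least 1 comparison, whose protein name holds protease, proteinase, carboxypeptidase, subtilisin or vacuolar-processing. Names of the 26S protease and of ubiquitin were left out, which removed 3 genes at 1 DPA. The rule used names and no expression value, although every listed gene had already passed the authors' thresholds. RNA was measured by sequencing in 18 libraries of upland cotton (Gossypium hirsutum) ovules, in 6 groups of 3. The mutant Xu142fl and the line Xu142 were each sampled 1 day before flower opening, on the day itself and 1 day after it (-1, 0 and 1 DPA, days post-anthesis), and the labels give the treatment of all 18 as unhandled. As background, Xu142fl is a fuzzless-lintless mutant that makes almost no fiber, and Xu142 is the fiber-bearing line it came from. The labels name no allele and do not say whether the replicates came from separate plants, so a p-value here reflects no more than the scatter among libraries, part of which may be technical. The series title ties these samples to H3K27me3, a repressive histone mark, during fiber initiation. The comparison on each day asks which protease transcripts differ between fiberless and fiber-bearing ovules.

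Proteases cut peptide bonds, and plant genomes encode them in families named for the residue or metal ion that does the cutting. Papain-like cysteine proteases such as RD21, RD19 and aleurain are made as inactive proenzymes and act mostly in the vacuole, while cystatins bind and block them. Vacuolar processing enzymes are a separate, legumain-type family of cysteine proteases that cut after asparagine, mature other vacuolar proteins and are known from vacuole-driven cell death in Arabidopsis. Aspartic proteases, subtilases and serine carboxypeptidases are vacuolar or secreted, and Lon, Clp and FTSH proteases clear proteins in mitochondria and plastids. Cotton fibers are single epidermal cells of the ovule that begin to bulge around flower opening and later enlarge around a growing vacuole.

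All values are deposited normalised reads, which are read counts divided by 1 scaling factor per library, and log2 ratios are of the group means, Xu142fl over Xu142, ± SE. A gene is called when it appears in the authors' deposited table of that day, which keeps genes whose log2 fold change reaches 1 in either direction. The highest adjusted p in the authors' deposited table was 4.93e-05 at -1 DPA, 0.0131 at 0 DPA and 0.0497 at 1 DPA, so the tables reach down to different p-values and their lengths cannot be set against each other. The authors' deposited tables listed 8 of the genes at -1 DPA, 10 at 0 DPA and 80 at 1 DPA. Over all genes, they listed 872 of 58161 tested genes (1.50%) at -1 DPA, 1366 of 57326 (2.38%) at 0 DPA and 10793 of 61474 (17.6%) at 1 DPA. Reads over the listed genes, which are no library depths, came to 210953 to 257804 a library at -1 DPA, 130502 to 346187 at 0 DPA and 2833696 to 6388114 at 1 DPA. Whole libraries cannot be scaled again from these tables. Factors taken from the listed genes alone moved the median log2 ratio of those genes by -0.17 (TMM) and -1.10 (DESeq2) at -1 DPA, by 1.10 and 1.55 at 0 DPA and by 1.20 and 1.24 at 1 DPA, so directions of changes near a log2 ratio of 1 rest on the authors' scaling. In bulk ovules, fewer cells of a type and less RNA per cell cannot be told apart. As a check of the tissue, the ovule identity factor AGL11 (Gh_D05G274800) averaged 1086 ± 194 normalised reads in Xu142fl and 2388 ± 176 in Xu142 at 1 DPA (SD, n = 3 each). It was 1 of 2 lower genes among the 15 listed ovule names of that day, of which 13 were higher in Xu142fl.

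At -1 DPA, the day before flower opening, 6 of the 8 listed members were higher and 2 were lower in Xu142fl. Among all listed genes of that day 54.9% were higher and 45.1% lower, and the median log2 ratio was 1.30 for the members and 1.30 for all listed genes. The higher members were 3 aspartic proteases, 1 subtilase, an aleurain-like protease and 1 vacuolar processing enzyme, and the lower ones were a vacuolar processing enzyme and RD19A. With DESeq2 factors of the listed genes 0 of the 6 higher members stayed called and both lower ones did. Over all listed genes these factors called 299 higher and 393 lower, where the authors had 479 and 393.

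At flower opening 3 of 10 listed members were higher and 7 lower, against 36.7% higher and 63.3% lower over all listed genes. The median log2 ratio was -3.52 for the members and -1.77 for the listed genes. Those lower were 2 vacuolar processing enzymes, 2 papain-like proteases, the Pro-X carboxypeptidase, a Lon protease homolog and a SUMO protease. Those higher were 2 aspartic proteases and a subtilase. Both TMM and DESeq2 factors of the listed genes gave 3 higher and 4 lower. Over all listed genes they called 501 higher and 303 lower (TMM) or 499 and 172 (DESeq2), where the authors had 502 and 864.

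By 1 DPA the 80 listed members held 30 higher and 50 lower in Xu142fl, or 37.5% higher, against 32.5% higher and 67.5% lower over all listed genes. Their median log2 ratio was -1.40, and that of all listed genes -1.31, so neither the share nor the median of the members stood away from the day's list. With TMM or DESeq2 factors of the listed genes 30 stayed higher and 25 stayed lower. Over all listed genes they called 3505 higher and 2411 lower (TMM) or 3503 and 2317 (DESeq2), where the authors had 3505 and 7288. Of the 82 genes, 70 were listed on 1 day, 8 on 2 days and 4 on all 3 days, and those 4 were the vacuolar processing enzyme Gh_A07G023300, RD19A (Gh_A13G030200), an aspartic proteinase (Gh_D08G224600) and ASPARTIC PROTEASE IN GUARD CELL 1 (Gh_D09G188900).

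**Figure D1:**
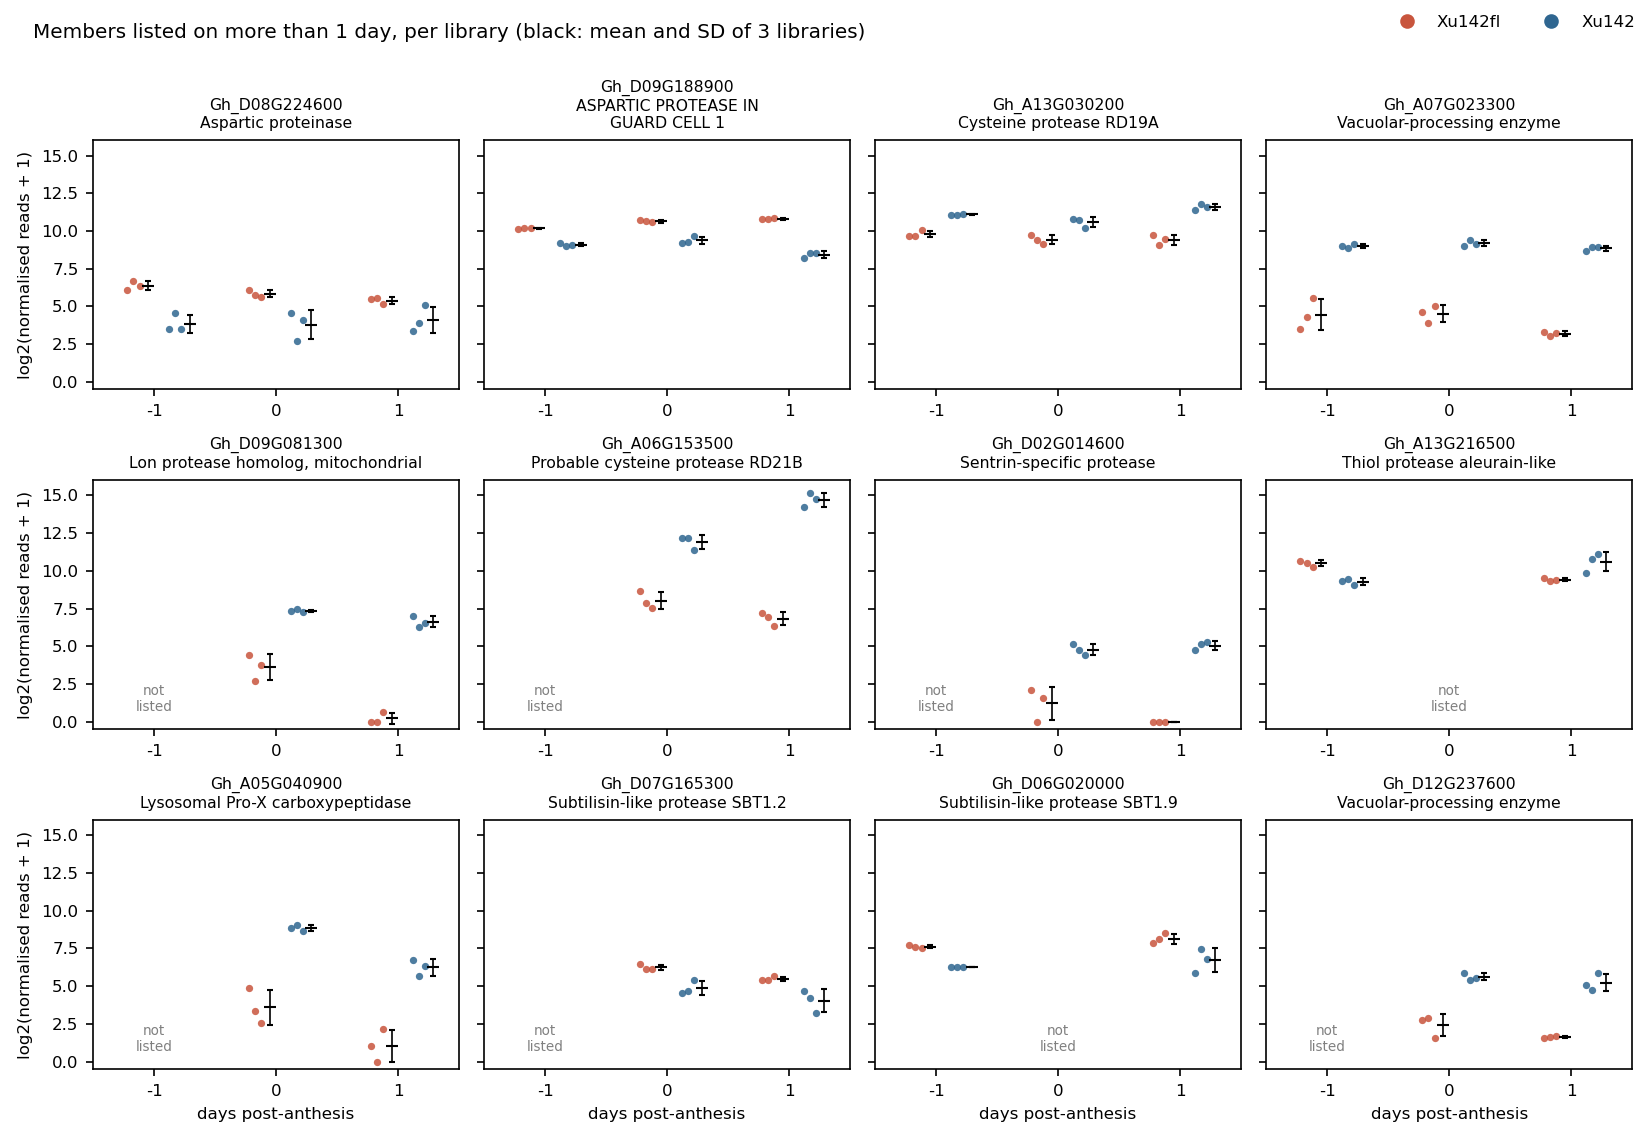
Normalised reads, as log2(value + 1), of the 12 members listed on more than 1 day, by day post-anthesis, with Xu142fl (red) left of Xu142 (blue) and the mean ± SD of 3 libraries in black. The 4 genes of the top row were listed on all 3 days, and in each of them the genotypes kept the same order on every day, while the order was turned for the aleurain-like protease Gh_A13G216500 between -1 and 1 DPA.

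A vacuolar processing enzyme gene was far lower in Xu142fl on all 3 days. Gh_A07G023300 (chromosome A07, 2524213 to 2527207, on the authors' build) had 10.6, 18.3 and 45.6 normalised reads in Xu142fl, against 506, 459 and 555 in Xu142 at -1 DPA, a log2 ratio of -4.35 ± 0.62. Replicate 3 of Xu142fl was the highest of its group there, and without it the ratio was -5.13. At 0 DPA the gene had 23.6, 13.9 and 32.3 normalised reads in Xu142fl, against 522, 669 and 572 in Xu142, with a log2 ratio of -4.66 ± 0.35. At 1 DPA it had 9.03, 7.17 and 8.51 normalised reads in Xu142fl, against 406, 491 and 499 in Xu142, and the log2 ratio was -5.82 ± 0.13. The authors' deposited table gives a log2 fold change of 1.38 (Xu142 over Xu142fl) at -1 DPA, smaller in size than the ratio of the group means. On no day did the genotypes overlap, and the adjusted p in the authors' deposited table was 1.12e-09, 4.30e-66 and 7.28e-80 at -1, 0 and 1 DPA.

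A second gene of this name, Gh_D12G237600 (chromosome D12, 57202607 to 57206241), was lower in Xu142fl on the later 2 days at a smaller level. It had 5.61, 6.48 and 1.96 normalised reads in Xu142fl, against 57.8, 41.7 and 46.4 in Xu142 at 0 DPA (log2 ratio -3.38 ± 0.45) and 2.01, 2.05 and 2.27 in Xu142fl, against 32.1, 25.9 and 57.3 in Xu142 at 1 DPA (-4.19 ± 0.36). The third, Gh_D09G120900 (chromosome D09, 38231256 to 38235298), went the other way and was listed at -1 DPA only, with 69.3, 70.1 and 89.2 normalised reads in Xu142fl, against 25.2, 27.97 and 16.3 in Xu142 and a log2 ratio of 1.72 ± 0.25. All 3 carry a peptidase C13 domain in the deposited descriptions. Per kilobase, Gh_A07G023300 had 284 normalised reads and Gh_D09G120900 15.8 in Xu142 at -1 DPA. Of these 2 genes, the one lower in Xu142fl was thus the more abundant in the fiber-bearing line.

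Papain-like proteases held the most abundant members of Xu142 ovules at 1 DPA. Of the 10 members named cysteine proteases at 1 DPA, 3 were higher and 7 lower, with a median log2 ratio of -1.89, and counting by the papain domain, which adds the 3 aleurain genes and leaves out the RD21B gene Gh_D12G097700, gave 3 higher and 9 lower. By name 70.0% were lower and by domain 75.0%, against 67.5% of all listed genes. RD21B, named for a granulin-containing vacuolar protease of Arabidopsis, accounted for 7 genes, 1 higher and 6 lower. Gh_A06G153500 (chromosome A06, 97501224 to 97503414) had 405, 229 and 188 normalised reads in Xu142fl, against 4559.6, 4573 and 2676 in Xu142 at 0 DPA, a log2 ratio of -3.84 ± 0.42. At 1 DPA it had 145, 121 and 79.99 normalised reads in Xu142fl, against 18976, 35987 and 27915 in Xu142. Its log2 ratio was then -7.91 ± 0.35, with an adjusted p of 1.05e-228 in the authors' deposited table. Every Xu142fl library lay far below every Xu142 library on both days.

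The D-subgenome RD21B gene on the matching chromosome, Gh_D06G154600 (chromosome D06, 48150065 to 48152322), was listed at 1 DPA only and differed by less. It had 4792, 3448 and 3962 normalised reads in Xu142fl, against 19572, 32739.96 and 25481 in Xu142, a log2 ratio of -2.67 ± 0.25. Per kilobase these were the most abundant members in Xu142 at 1 DPA, at 14813 normalised reads for the A copy and 13415 for the D copy, against 61.7 and 2104 in Xu142fl. The A copy made up 2.86 ± 0.74% of the pair's reads per length in Xu142fl and 52.2 ± 1.79% in Xu142 (n = 3 each). An exact permutation test over the libraries gave a two-sided p of 0.1, the smallest that 3 against 3 libraries allow (0.156 adjusted over 14 pairs). The authors' rule for reads that match both copies is not given in the sources used here, so the split between near-identical copies is uncertain.

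The other RD21B genes differed by less between genotypes. The pair Gh_A12G080300 and Gh_D12G097700 had log2 ratios of -2.23 ± 0.29 and -2.11 ± 0.23 at 1 DPA, and Gh_D02G232600 and Gh_A03G215800 had -1.67 ± 0.34 and -1.57 ± 0.24. Gh_A05G189400 was the exception, with 1191, 1197 and 1196 normalised reads in Xu142fl, against 449, 491 and 536 in Xu142 and a log2 ratio of 1.28 ± 0.07. Its 3 libraries in Xu142fl were nearly equal and all above those of Xu142.

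**Figure D2:**
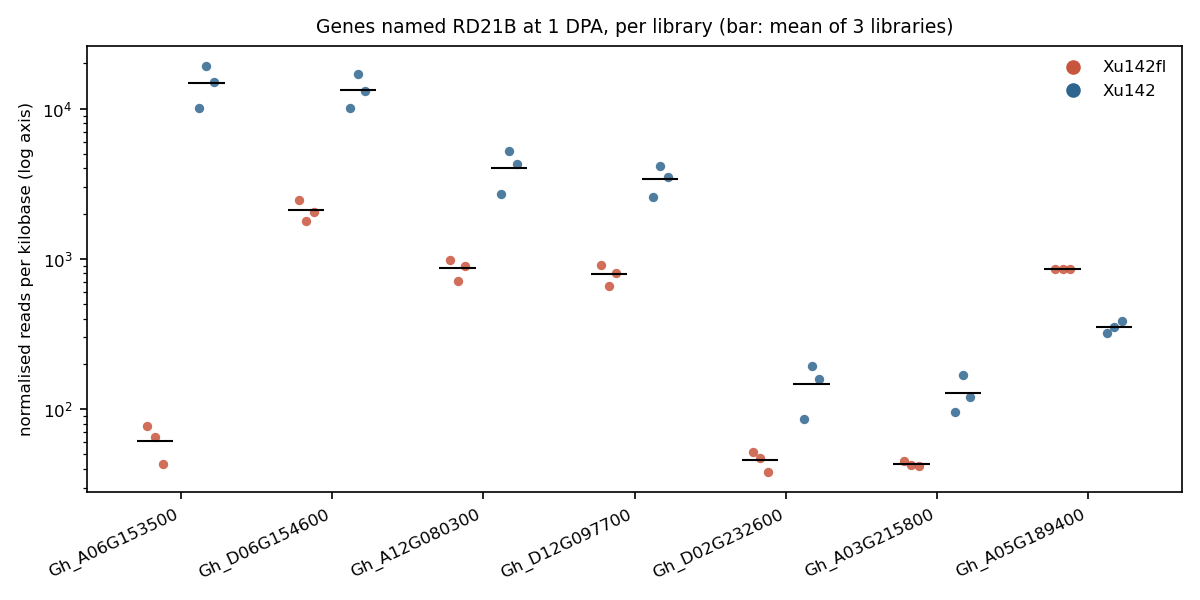
Normalised reads per kilobase (log axis) of the 7 genes named RD21B at 1 DPA, each library as a point, with Xu142fl (red) left of Xu142 (blue) and the mean of 3 libraries as a bar. The widest gap is that of Gh_A06G153500, at means of 61.7 per kilobase in Xu142fl and 14813 in Xu142, and Gh_A05G189400 alone is higher in Xu142fl.

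RD19A, a papain-like protease first described as drought-induced in Arabidopsis, was lower on all 3 days. Gh_A13G030200 (chromosome A13, 3314551 to 3316405) had 824, 809 and 1059 normalised reads in Xu142fl, against 2175, 2179 and 2208 in Xu142 at -1 DPA, a log2 ratio of -1.29 ± 0.13. It had 836, 675 and 562 in Xu142fl, against 1781, 1715 and 1184 in Xu142 at 0 DPA (-1.18 ± 0.24) and 856, 539 and 704 in Xu142fl, against 2694, 3469 and 3038 in Xu142 at 1 DPA (-2.13 ± 0.22). The groups did not overlap on any day, but the 0 DPA call of the authors' deposited table was not kept in an edgeR refit of the recovered reads (Benjamini-Hochberg adjusted p = 0.0677, or 0.0230 with the replicate number as a block), and DESeq2 factors of the listed genes turned its log2 ratio at 0 DPA to 0.39.

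Aleurain, named for a vacuolar protease of barley aleurone, was listed as 3 genes. The aleurain-like Gh_A13G216500 (chromosome A13, 104082270 to 104084301) was higher at -1 DPA, with 1643, 1491 and 1246 normalised reads in Xu142fl, against 626, 718 and 529 in Xu142 and a log2 ratio of 1.22 ± 0.17. At 1 DPA it was lower, with 741, 645 and 673 normalised reads in Xu142fl, against 943, 1795 and 2186 in Xu142 and a log2 ratio of -1.26 ± 0.33. The 1 DPA difference was not called by edgeR without Xu142fl replicate 2 (adjusted p = 0.0553) and was 0.01 with DESeq2 factors of the listed genes. The aleurain pair Gh_A05G026700 and Gh_D05G035800 was lower at 1 DPA, at -1.17 ± 0.12 and -1.61 ± 0.13, and with both kinds of factors of the listed genes the log2 ratio of Gh_A05G026700 turned to 0.04 (TMM) and 0.08 (DESeq2).

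XCP1, a protease of dying xylem cells in Arabidopsis, was singled out after its values were seen because its groups overlapped. Gh_A12G013400 had 17.1, 21.5 and 70.3 normalised reads in Xu142fl, against 5.17, 21.8 and 4.68 in Xu142 at 1 DPA, and Gh_D12G012400 had 16.1, 39.97 and 70.9 in Xu142fl, against 3.10, 24.6 and 3.51 in Xu142. Replicate 3 of Xu142fl and replicate 2 of Xu142 were the high libraries for both copies. The log2 ratios of 1.78 ± 1.03 and 2.03 ± 1.12 became 2.88 and 3.68 without Xu142 replicate 2, and the edgeR refit called neither copy (adjusted p = 0.166 and 0.131), while with a replicate block it called Gh_D12G012400 (0.0794 and 0.0160).

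Among the cystatins, which block papain-like enzymes, 2 were higher and 3 lower at 1 DPA, or 60.0% lower, against 67.5% of all listed genes. None was listed at -1 or 0 DPA, when 1.50% and 2.38% of tested genes were listed, against 17.6% at 1 DPA. Cysteine proteinase inhibitor 4 (Gh_D02G022400, chromosome D02, 2282118 to 2282495) had 13.05, 11.3 and 17.6 normalised reads in Xu142fl, against 438, 2196 and 1890.3 in Xu142, a log2 ratio of -6.75 ± 0.55. Inhibitor 2 (Gh_A02G020000) had 10.04, 2.05 and 11.3 normalised reads in Xu142fl, against 27.9, 265 and 336 in Xu142, a log2 ratio of -4.74 ± 0.84. In both genes Xu142 replicate 1 was far below the other two Xu142 libraries and still above all of Xu142fl. Inhibitor 12 (Gh_A06G206500) was lower by less, at -1.25 ± 0.24, and its log2 ratio was 0.0022 with DESeq2 factors of the listed genes. The genes named inhibitor 5 were higher, at 1.35 ± 0.35 for Gh_Contig00964G000400 and 1.17 ± 0.43 for Gh_A03G113700. The edgeR refit did not call Gh_A03G113700 (adjusted p = 0.103), and it lost Gh_Contig00964G000400 without Xu142fl replicate 2 or 3 (0.0606 and 0.0627).

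Few aspartic proteases were listed before and at flower opening, 3 higher and 0 lower at -1 DPA and 2 higher and 0 lower at 0 DPA, and at 1 DPA there were 7 higher and 10 lower (median log2 ratio -1.34). At 1 DPA 58.8% of the class were lower, against 67.5% of all listed genes. All 18 genes of the class carry an aspartic protease domain. ASPARTIC PROTEASE IN GUARD CELL 1, known in Arabidopsis from drought avoidance, was higher on all 3 days in Gh_D09G188900 (chromosome D09, 46257802 to 46259524). It had 1129.6, 1167 and 1198 normalised reads in Xu142fl, against 596, 515 and 538 in Xu142 at -1 DPA, a log2 ratio of 1.08 ± 0.07. It had 1699.8, 1597 and 1512 in Xu142fl, against 601, 624 and 796 in Xu142 at 0 DPA (1.25 ± 0.14) and 1740.1, 1741 and 1894 in Xu142fl, against 288, 379 and 371 in Xu142 at 1 DPA (2.37 ± 0.13). Within each day the genotypes did not overlap, although the -1 DPA log2 ratio was -0.02 with DESeq2 factors of the listed genes and the 0 DPA call was lost in edgeR (adjusted p between 0.0715 and 0.174) without any 1 of the Xu142fl libraries or of Xu142 replicates 1 and 2. Another gene of the same name, Gh_D12G285600, was lower at 1 DPA, with 2106, 2393 and 2296 normalised reads in Xu142fl, against 3663, 8385 and 6326 in Xu142 and a log2 ratio of -1.43 ± 0.33.

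The aspartic proteinase Gh_D08G224600 (chromosome D08, 63467309 to 63470137), which also carries saposin-like domains, was likewise listed as higher on all 3 days. It had 65.8, 101 and 80.7 normalised reads in Xu142fl, against 10.3, 22.2 and 10.6 in Xu142 at -1 DPA (log2 ratio 2.52 ± 0.43), 67.4, 53.7 and 48.9 in Xu142fl, against 22.3, 5.45 and 16.5 in Xu142 at 0 DPA (1.94 ± 0.50) and 43.2, 46.1 and 34.04 in Xu142fl, against 9.31, 13.6 and 32.8 in Xu142 at 1 DPA (1.15 ± 0.57). At 1 DPA Xu142fl replicate 3 lay just above Xu142 replicate 3, and the log2 ratio was 1.84 without Xu142 replicate 3. In the edgeR refit the calls of the authors' deposited table at 0 and 1 DPA were not kept (adjusted p = 0.0643 and 0.176). Its A-subgenome partner by name and chromosome number, Gh_A08G231400, was listed at -1 DPA only, with 82.2, 126 and 78.8 normalised reads in Xu142fl, against 34.5, 20.3 and 19.2 in Xu142 and a log2 ratio of 1.96 ± 0.37.

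At 1 DPA the lowest ratio of the aspartic class was that of CDR1 (Gh_A13G140700), known from apoplastic disease resistance in Arabidopsis, with 4.01, 4.10 and 3.40 normalised reads in Xu142fl, against 29.99, 49.1 and 71.4 in Xu142 and a log2 ratio of -3.71 ± 0.35. The nepenthesin-1 pair, named for a digestive enzyme of pitcher plants, followed. Gh_A09G154500 (chromosome A09, 71347336 to 71349061) had 424, 412 and 457 normalised reads in Xu142fl, against 1571, 7512 and 4936 in Xu142, a log2 ratio of -3.44 ± 0.53, and Gh_D09G145700 had 399, 383 and 473 in Xu142fl, against 1375, 4910.04 and 3286 in Xu142, a log2 ratio of -2.93 ± 0.47. Xu142 replicate 1 was again the low library of its group in both copies. On the higher side stood Gh_A08G195000, named probable aspartyl protease At4g16563, with 771, 901 and 939 normalised reads in Xu142fl, against 93.1, 166 and 246 in Xu142 and a log2 ratio of 2.37 ± 0.39, and Gh_D05G064200, named At5g10770, with 174, 325 and 293 in Xu142fl, against 101, 62.8 and 56.1 in Xu142 and 1.85 ± 0.37.

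Subtilases, serine proteases that are mostly secreted, were higher at -1 DPA (1 of 1), at 0 DPA (1 of 1) and in 5 of 8 listed genes at 1 DPA, where the median log2 ratio was 1.24. Over all listed genes of 1 DPA 32.5% were higher. By the subtilase domain the split at 1 DPA was 4 higher and 4 lower, because SBT4.3 carries no such domain in the descriptions and the CO(2)-response secreted protease does. SBT1.9 (Gh_D06G020000, chromosome D06, 1936473 to 1938767) had 210.2, 195 and 182 normalised reads in Xu142fl, against 75.6, 74.3 and 75.9 in Xu142 at -1 DPA and 226, 282 and 357 in Xu142fl, against 57.9, 176 and 108 in Xu142 at 1 DPA, with log2 ratios of 1.38 ± 0.06 and 1.34 ± 0.47. SBT1.2, whose Arabidopsis counterpart limits the number of stomata, had 86.5, 69.4 and 70.5 normalised reads in Xu142fl, against 22.3, 24.5 and 41.2 in Xu142 at 0 DPA in Gh_D07G165300 (chromosome D07, 28291527 to 28293905) and 41.1, 42.02 and 48.8 in Xu142fl, against 24.8, 17.7 and 8.19 in Xu142 at 1 DPA, with log2 ratios of 1.36 ± 0.31 and 1.38 ± 0.42. The edgeR refit did not call SBT1.2 at 0 DPA (adjusted p = 0.0885), the call at 1 DPA was lost (0.0866 to 0.157) without any 1 of the Xu142fl libraries or of Xu142 replicates 2 and 3, and that of SBT1.9 at 1 DPA was lost (0.0594 to 0.135) without any 1 of the Xu142fl libraries or Xu142 replicate 3.

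SBT4.3 (Gh_A08G002100) had 232, 285 and 209.9 normalised reads in Xu142fl, against 146, 39.6 and 62.00 in Xu142 at 1 DPA, a log2 ratio of 1.55 ± 0.58 that was 2.25 without Xu142 replicate 1, its highest Xu142 library. Its edgeR call was lost without any 1 of the Xu142fl libraries or Xu142 replicate 3 (adjusted p = 0.0613 to 0.115). SBT1.1 (Gh_D12G119000) had a log2 ratio of 1.13 ± 0.18. The abundant subtilases were lower. SBT1.3 had 3042, 2836 and 2711 normalised reads in Xu142fl, against 8819, 14315 and 11261 in Xu142 in Gh_D09G052600 (chromosome D09, 21233646 to 21236543) and 2307, 2333 and 2249 in Xu142fl, against 5152, 8334 and 6373 in Xu142 in Gh_A09G056200, with log2 ratios of -2.00 ± 0.21 and -1.53 ± 0.20. SBT1.4 (Gh_A10G044800) had 16.1, 18.4 and 10.8 normalised reads in Xu142fl, against 141, 306 and 236 in Xu142, a log2 ratio of -3.91 ± 0.37. The CO(2)-response secreted protease Gh_D13G001700, which in Arabidopsis trims a peptide that represses stomata, had 55.2, 55.3 and 35.2 normalised reads in Xu142fl, against 776, 1497 and 1200.2 in Xu142, a log2 ratio of -4.57 ± 0.33. No library of Xu142fl reached the level of any Xu142 library in these 4 genes. That does not set them apart, because groups overlapped in only 4 of the 80 listed members at 1 DPA.

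Serine carboxypeptidases, which remove amino acids from the end of a chain and some of which act as acyltransferases, were listed at 1 DPA only, the day with the longest list. Of them 5 were higher and 12 lower (70.6%) with a median log2 ratio of -1.36, close to the 67.5% lower and the -1.31 of all listed genes. Serine carboxypeptidase-like 49 was the most abundant, and Gh_D05G296000 (chromosome D05, 31190356 to 31194473) had 2431, 1736 and 1994 normalised reads in Xu142fl, against 8385, 14374 and 12487 in Xu142, a log2 ratio of -2.52 ± 0.26. Its partner Gh_A05G283800 had 3009, 2444 and 2791 normalised reads in Xu142fl, against 5360.4, 8523 and 7249 in Xu142, a log2 ratio of -1.36 ± 0.21. All 4 listed genes named serine carboxypeptidase-like 27 were lower, the pair Gh_D13G025300 and Gh_A13G023700 at -3.03 ± 0.23 and -2.39 ± 0.31, and Gh_D04G095800 and Gh_A05G347800 at -2.03 ± 0.05 and -2.02 ± 0.18. The higher genes had low levels, up to 324 normalised reads in any library. Among them serine carboxypeptidase II-3 (Gh_D05G201500) had 72.3, 84.04 and 98.1 normalised reads in Xu142fl, against 18.6, 36.8 and 29.2 in Xu142, a log2 ratio of 1.59 ± 0.30. Serine carboxypeptidase-like 33 (Gh_D09G077400, 1.33 ± 0.46) and 20 (Gh_A07G179000, 1.10 ± 0.41) were called by the edgeR refit with all libraries (adjusted p = 0.0400 and 0.0416). Without 1 library the adjusted p of Gh_D09G077400 ranged up to 0.206 (Xu142fl replicate 3) and that of Gh_A07G179000 up to 0.183 (Xu142fl replicate 2).

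The Pro-X carboxypeptidase, whose human counterpart cuts after a proline next to the chain end, split by gene. Gh_A05G040900 (chromosome A05, 5037067 to 5040093) had 28.1, 9.25 and 4.89 normalised reads in Xu142fl, against 469, 521 and 397 in Xu142 at 0 DPA and 1.00, 0 and 3.40 in Xu142fl, against 104, 49.1 and 79.5 in Xu142 at 1 DPA. The log2 ratios were -5.04 ± 0.74 and -5.72 ± 1.04, or -6.03 at 0 DPA without Xu142fl replicate 1 and -7.27 at 1 DPA without Xu142fl replicate 3. Gh_A09G104600 was higher at 1 DPA, with 115, 135 and 196 normalised reads in Xu142fl, against 89.96, 45.02 and 76.03 in Xu142 and a log2 ratio of 1.08 ± 0.36, a call that edgeR lost without any 1 of 5 libraries (0.0532 to 0.222), all except Xu142 replicate 1.

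The Lon homolog and the genes named sentrin-specific protease had few or no reads in Xu142fl at 1 DPA. The Lon homolog Gh_D09G081300 (chromosome D09, 31954120 to 31956192), a mitochondrial quality-control protease, had 20.2, 5.55 and 12.7 normalised reads in Xu142fl, against 157, 173 and 156 in Xu142 at 0 DPA, a log2 ratio of -3.66 ± 0.48. At 1 DPA it had 0, 0 and 0.567 normalised reads in Xu142fl, against 129, 77.8 and 92.4 in Xu142. With 1 read over the Xu142fl libraries, Xu142 was 528-fold higher with a 95% counting interval of 63.8 to 14224. The deposited description gives it the Lon substrate-binding domain only, at a gene length of 660 bases. A gene named sentrin-specific protease, a type that removes SUMO from proteins, Gh_D02G014600 (chromosome D02, 1322758 to 1324872), had 3.37, 0 and 1.96 normalised reads in Xu142fl, against 34.5, 26.3 and 20.6 in Xu142 at 0 DPA, a log2 ratio of -3.93 ± 0.82 that was -4.79 without Xu142fl replicate 1. The 0 DPA call was lost in edgeR without Xu142fl replicate 3 or Xu142 replicate 2 (adjusted p = 0.0508 and 0.0519). At 1 DPA it had 0 reads in Xu142fl, against 25.9, 34.1 and 37.4 normalised reads in Xu142, which makes it at least 37.5-fold lower in Xu142fl at a floor of 3 reads over the group. Such intervals and floors cover counting error only.

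The metalloproteases split by type at 1 DPA, with 4 FTSH-type genes higher and both 2-MMP genes lower. Of the class 33.3% were lower, against 67.5% of all listed genes. FTSH proteins are membrane-bound proteases of plastids and mitochondria, of which the FTSHI members lack a working catalytic site. FTSHI 1 (Gh_A04G093200) had 49.2, 79.9 and 69.8 normalised reads in Xu142fl, against 18.6, 27.3 and 18.7 in Xu142 (log2 ratio 1.62 ± 0.28), FTSHI 5 (Gh_A11G276400) had 385, 621 and 679 in Xu142fl, against 253, 291 and 266 in Xu142 (1.06 ± 0.24) and FTSH 11 (Gh_A01G187300) had 104, 130.2 and 139.6 in Xu142fl, against 66.2, 64.1 and 49.1 in Xu142 (1.06 ± 0.18). The extracellular metalloproteinase 2-MMP had 31.1, 26.6 and 26.1 normalised reads in Xu142fl, against 43.4, 229 and 285 in Xu142 in Gh_D05G327600 and 20.1, 18.4 and 24.96 in Xu142fl, against 22.7, 128 and 166 in Xu142 in Gh_A05G323800, with log2 ratios of -2.73 ± 0.57 and -2.32 ± 0.60. In Gh_A05G323800 the low Xu142 replicate 1 fell inside the range of Xu142fl. The edgeR call of Gh_D05G327600 was lost without Xu142fl replicate 1 (adjusted p = 0.0614), that of FTSH 11 without Xu142fl replicate 3 (0.0608), and that of Gh_A05G323800 without any 1 of the libraries other than Xu142 replicate 1 (0.0687 to 0.155). FTSH 4 (Gh_D13G216000), given to complete the FTSH-type genes, had a log2 ratio of 1.38. The edgeR refit did not call it (adjusted p = 0.0805, or 0.0884 with a replicate block), nor did it without any 1 library.

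Of the remaining genes at 1 DPA, the glyoxysomal processing protease (Gh_D06G149600), which trims the import signal of peroxisomal enzymes, was higher at 1.16 ± 0.10. The serine protease EDA2 (Gh_D11G191100) and a vacuolar membrane protease (Gh_Contig01002G000100) were lower, at -2.09 ± 0.13 and -1.68 ± 0.25. A second gene named sentrin-specific protease, Gh_D02G013800, had 2 reads over the 3 Xu142fl libraries, and Xu142 was 23.6-fold higher with a 95% counting interval of 5.42 to 184. A Clp protease subunit gene, Gh_Contig00533G002700, was singled out after its values were seen because its groups overlapped. It had 3.01, 14.3 and 15.3 normalised reads in Xu142fl, against 1.03, 1.36 and 3.51 in Xu142, and the log2 ratio of 2.47 ± 0.77 was 3.18 without Xu142 replicate 3 and was not called by the edgeR refit (adjusted p = 0.0707, or 0.0447 with a replicate block). The members not named here lay within the range of their class, which ran from -3.71 to 2.37 for aspartic proteases and from -3.03 to 1.83 for serine carboxypeptidases, the upper end being Gh_D05G212500, which was at 2.64 without Xu142 replicate 3 and whose edgeR call was lost without any 1 of the Xu142fl libraries or Xu142 replicate 2 (adjusted p = 0.0880 to 0.122).

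**Figure D3:**
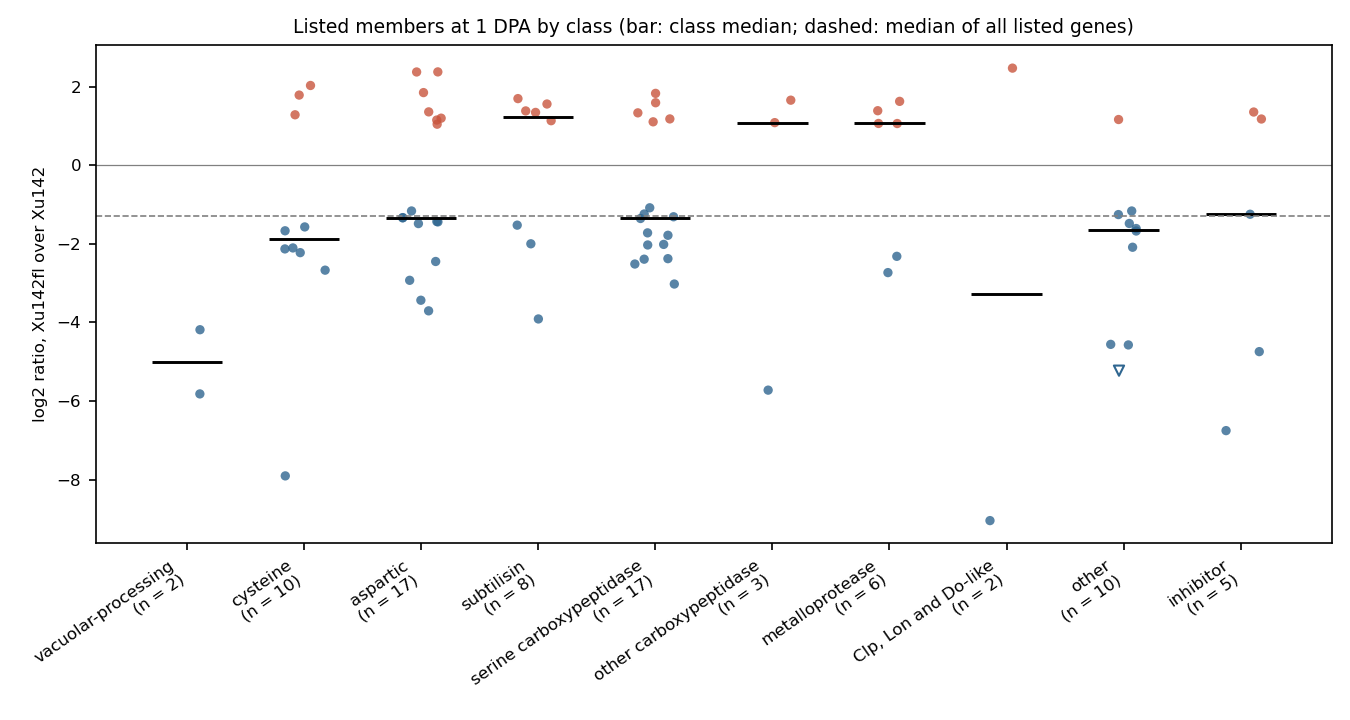
Log2 ratios (Xu142fl over Xu142) of the 80 members listed at 1 DPA by class, red above 0 and blue below, with the class median as a bar and the median of all listed genes, -1.31, dashed. The open triangle is Gh_D02G014600, which had 0 reads in Xu142fl and is drawn at its lower bound of fold change. No listed gene lies near 0 because the authors' thresholds left such genes out.

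At 1 DPA lower calls were kept more often than higher calls when libraries were left out, over all listed genes as among the members. This did not hold at -1 DPA, where 99.0% of higher and 96.7% of lower listed genes were kept, and every member. In edgeR refits at 1 DPA, 44 of the 50 lower members were called with all libraries and without each library in turn, or 88.0%, and 11 of the 30 higher ones, or 36.7%. Over all listed genes the shares were 81.8% of 7288 lower and 57.7% of 3505 higher genes. Another 6 of the higher members were not called with all libraries, and 13 more lost the call without at least 1 library, among them the genes given above. Xu142 replicate 1 was the lowest Xu142 library in 63 of the 80 members (78.8%) and in 63.4% of all listed genes at 1 DPA, with a median of 0.731 of its group mean over members and 0.873 over listed genes. Its part in these results was not tested beyond leaving it out, which kept 21 higher and 50 lower members called in edgeR, and 3108 of 3505 higher and 7133 of 7288 lower listed genes.

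Summed over listed members, protease reads overlapped at -1 DPA, at 3977 to 4035 normalised reads a library in Xu142fl and 3952 to 4049 in Xu142. They were 2435 to 3176 in Xu142fl, against 5905 to 8374 in Xu142, at 0 DPA, which made 1.66 to 2.17% of the reads over all listed genes in Xu142fl and 2.65 to 2.76% in Xu142. At 1 DPA they were 34033 to 37960 in Xu142fl, against 104039 to 184041 in Xu142, or 1.17 to 1.30% of the listed reads in Xu142fl and 1.68 to 2.21% in Xu142. The sums cover called genes only, each with its direction set by the list, so they are no level of all protease transcripts. Cysteine proteases alone gave 7768 to 10279 of the 1 DPA reads in Xu142fl (0.267 to 0.353%) and 50601 to 88629 in Xu142 (0.817 to 1.06%). Most of these reads in Xu142 came from the RD21B genes Gh_A06G153500 and Gh_D06G154600, so the sum is no level of the whole class. In the aspartic class the 0 DPA sum was higher in Xu142fl, at 1561 to 1767 normalised reads against 624 to 812 in Xu142. That sum covers 2 genes, both listed as higher, and came mostly from Gh_D09G188900, so its direction was set by the list. At 1 DPA the aspartic sum was 10796 to 11245 in Xu142fl, against 15276 to 33032 in Xu142.

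Upland cotton carries an A and a D subgenome, and 14 pairs of listed members at 1 DPA shared a protein name and a chromosome number. In all 14 both copies went the same way, 4 higher and 10 lower, and in 11 the log2 ratios differed by less than 1, with a median difference of 0.46. The pairs beyond that were RD21B on chromosomes A06 and D06, serine carboxypeptidase-like 49 and the aspartyl protease At4g16563. Pairs in which only 1 copy was listed were not counted, because a copy outside the table has no value there. Pairs among all listed genes were not counted, and how reads matching both copies were handled is not given. The shared direction is therefore not read as a trait of protease pairs. For serine carboxypeptidase-like 49 the A copy held 57.3 ± 1.78% of the reads per length in Xu142fl and 37.6 ± 1.19% in Xu142 (n = 3 each), a difference that did not overlap between libraries but again could not go below an exact permutation p of 0.1.

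**Figure D4:**
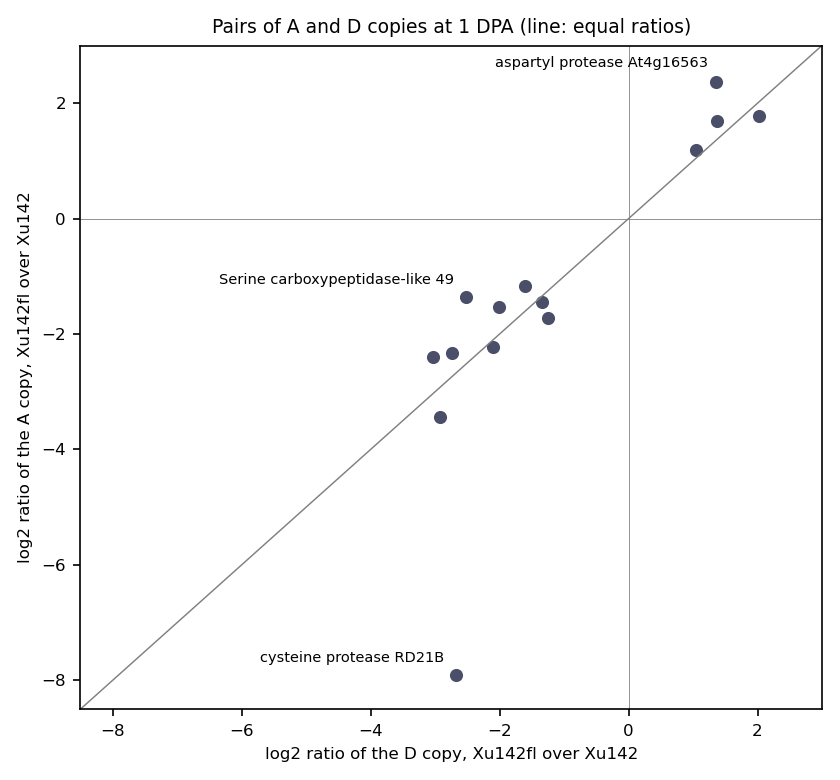
Log2 ratios (Xu142fl over Xu142) of the A copy (y axis) against the D copy (x axis) for 14 pairs of members at 1 DPA, with the line of equal ratios. Both copies have the same sign at every point, and the RD21B pair sits apart with -7.91 for the A copy and -2.67 for the D copy.

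The change of the genotype difference between days was tested for genes listed on both days of a pair with an edgeR interaction term (Benjamini-Hochberg over those genes). Between -1 and 0 DPA, 0 of the 4 members listed on both days were called, against 85 of 559 genes (15.2%), with 0 at an unadjusted p under 0.05 and 0 by limma. Between -1 and 1 DPA 5 of 6 were called, against 37.6% of 700 genes. Between 0 and 1 DPA 6 of 10 were called, against 45.5% of 1145 genes.

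From -1 to 1 DPA the aleurain-like Gh_A13G216500 turned round, with an interaction of -2.48 on the log2 scale and an edgeR adjusted p of 9.47e-06 that ranged from 5.52e-10 to 1.18e-04 over 15 alternatives. With DESeq2 factors of the listed genes its log2 ratio was 0.11 at -1 DPA and 0.01 at 1 DPA, and with TMM factors 1.03 and -0.03, so the size at both days and the sign at 1 DPA depended on the scaling. Each table has its own scaling, and levels are therefore not compared between days. The lead of Gh_D09G188900 in Xu142fl grew from both earlier days to 1 DPA, by 1.29 (edgeR adjusted p = 1.74e-04) and by 1.12 (0.00604). The deficit of the RD21B gene Gh_A06G153500 deepened between 0 and 1 DPA, with an interaction of -4.07 (edgeR adjusted p = 2.85e-05), and that of the Lon homolog with a value of -4.34 (9.23e-04). These 4 genes were called in all 15 alternatives, none of which changed the scaling.

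Other interactions were less firm. The vacuolar processing enzyme Gh_A07G023300 had an interaction of -1.48 from -1 to 1 DPA (edgeR adjusted p = 0.0180), lost in 2 of 15 alternatives, without Xu142fl replicate 3 of -1 DPA (0.159) and in limma. From 0 to 1 DPA it had -1.14 (0.0330), lost in 9 of 15 alternatives. RD19A had -0.85 (0.0190, lost in 1 of 15) from -1 DPA and -0.96 (0.0435, lost in 7 of 15) from 0 DPA, the aspartic proteinase Gh_D08G224600 -1.39 (0.0497, lost in 9 of 15) and the SUMO protease Gh_D02G014600 -4.14 (0.0336, lost in 8 of 15). None of these alternatives changed the scaling. With DESeq2 factors of the listed genes the log2 ratios at -1 and 1 DPA were -5.39 and -4.55 for Gh_A07G023300. They were -2.39 and -0.89 for RD19A and 1.42 and 2.38 for Gh_D08G224600. The direction of these changes from -1 to 1 DPA therefore depended on the scaling. The second vacuolar processing enzyme, Gh_D12G237600, was not called from 0 to 1 DPA (interaction -0.76, edgeR adjusted p = 0.414).

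Other genes of the same processes were counted from lists of names that the member rule does not reach. Of 41 other peptidases listed at 1 DPA 12 were higher and 29 lower, with a median log2 ratio of -1.35. These were close to the 67.5% lower and the median of -1.31 of all listed genes. Gamma-glutamyl peptidase 5 (Gh_D04G179600) had 4.01, 2.05 and 9.08 normalised reads in Xu142fl, against 238, 906 and 659 in Xu142, a log2 ratio of -6.90 ± 0.76. The signal peptidase-like protein DTM1 (Gh_D05G268900) had 1.00, 2.05 and 3.97 in Xu142fl, against 67.2, 168 and 117 in Xu142 (-5.65 ± 0.64). OMA1 (Gh_D07G045200), a protease of the inner mitochondrial membrane, was higher with 281, 275 and 230.3 in Xu142fl, against 71.3, 70.9 and 69.02 in Xu142 (1.90 ± 0.09), and so was Gh_A12G262100 (1.64 ± 0.30), 1 of 5 listed genes named chloroplast leucine aminopeptidase 2. The other 4 genes of that name were lower, Gh_A07G030800 at -2.31 ± 0.18 and Gh_A06G109600 at -1.62 ± 0.18 among them. The 3 listed inhibitors outside the rule were all lower, beside the same 67.5% over all listed genes. Kunitz trypsin inhibitor 2 and Serpin-ZX had 2 reads each over the 3 Xu142fl libraries.

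Vacuolar sorting and autophagy genes, which deliver cargo to the vacuole, were 9 higher and 14 lower at 1 DPA (median log2 ratio -1.07). Over all listed genes of that day 67.5% were lower, with a median of -1.31. A VPS32 homolog (Gh_A13G221100), part of the complex that buds vesicles into endosomes, had 1.00, 2.05 and 0 normalised reads in Xu142fl, against 163, 222 and 215 in Xu142, a log2 ratio of -7.62 ± 0.85, and ATG16 (Gh_A12G210100) had -2.11 ± 0.41. VPS13D (Gh_A03G008700) and ATG2 (Gh_D02G235100), which move lipids between membranes, were higher at 1.66 ± 0.25 and 1.38 ± 0.25. Genes with cell death names were 1 higher and 13 lower (median -1.53), beside the same 67.5% and -1.31 over all listed genes. They were drawn by name only, and those lower include genes named Bax inhibitor 1 and Programmed cell death protein 2. BAG6 (Gh_D08G146800), a chaperone regulator linked to cell death in Arabidopsis, had 6.02, 8.20 and 6.24 normalised reads in Xu142fl, against 978, 1121 and 1145 in Xu142, a log2 ratio of -7.31 ± 0.16, while BAG1 (Gh_A11G008200) had 1.90 ± 0.39. A gene named ACCELERATED CELL DEATH 6 (Gh_D04G210400) had 0 reads in Xu142fl, against 19.6, 88.7 and 86.6 normalised reads in Xu142.

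Names of tissue markers were also counted among the listed genes. Over all listed genes 45.1%, 63.3% and 67.5% were lower in Xu142fl at -1, 0 and 1 DPA. At 1 DPA the lower share of green tissue, pollen and anther, and embryo and endosperm names did not exceed 67.5%. Green tissue genes were 0 higher and 8 lower at -1 DPA, 0 and 8 at 0 DPA, and 13 and 21 at 1 DPA, with summed levels at -1 DPA of 277 to 347 in Xu142fl and 750.3 to 1337 in Xu142, at 0 DPA of 135 to 147 in Xu142fl and 456 to 546 in Xu142, and at 1 DPA of 445 to 863 in Xu142fl and 1041 to 1198 in Xu142. Pollen and anther names were 1 higher and 0 lower, 0 and 5, and 5 and 8 on the 3 days, with 1 DPA sums of 715 to 929 in Xu142fl and 1513 to 1675 in Xu142. Embryo and endosperm names were 0 and 0, 0 and 2, and 3 and 4, with 1 DPA sums of 333 to 412 in Xu142fl and 556 to 1049 in Xu142. Ovule names were 13 higher and 2 lower at 1 DPA, at 2287 to 2435 in Xu142fl and 2592 to 2961 in Xu142. Their part in the protease results was not tested.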

How the data were processed

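RNA of 18 ovule libraries was compared within each day, 3 Xu142fl against 3 Xu142 libraries, grouped by their labels. The values are a signal that the authors made by dividing read counts by 1 size factor per library, found from the deposited values, of which 100% were whole reads within 0.001. The log2 fold changes, as deposited, have Xu142 on top (read from the group means). They were smaller in size than the log2 ratios of group means in all 97 member values with reads in both genotypes, with a median share of 0.762, 0.742 and 0.966 at -1, 0 and 1 DPA. The ratios of group means are printed. The deposited p-values come from the authors' own test, whose name, like the aligner, build, strand and counting rule, is not given in the sources used here. The authors' deposited tables hold called genes only, so their calls are the main result, and how many genes they tested was worked out from how far adjustment moved each p-value. Depth of whole libraries is unknown.

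Log2 ratios of group means, classes by protein name, refits of recovered reads (edgeR 4.0.16 quasi-likelihood, DESeq2 1.42.0, R 4.3.3), limma 3.58.1 on log2(value + 1 or 0.1) and interactions between days were computed here. Refits were adjusted by Benjamini-Hochberg with the number of genes tested by the authors, their spread estimated from listed genes only, and interactions over the genes listed on both days. The edgeR refit called 872 of 872, 1144 of 1366 and 10130 of 10793 listed genes at -1, 0 and 1 DPA. The scripts were tested on simulated data. The text names all vacuolar processing enzymes, members listed on 2 or more days, all members on days with 25 or fewer, and in each class the 3 largest ratios each way with a mean of at least 50. It also names members outside this rule, and only some of them are marked as chosen after their values were seen or to complete a family. Members and lists were chosen with earlier results of these data known. Alternatives left out each library, blocked on replicate number, changed the factors, filtered at a mean of 10 or used an adjusted p of 0.01. Classes by Pfam domain were added after seeing the data. No sequence is shown.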

Additional observations from a re-analysis of the deposited data

Results flagged for a closer look

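The genotype difference (Xu142fl over Xu142, log2) changed between days in 11 tests, each by the edgeR interaction term. From -1 to 1 DPA the changes were -2.48 for the aleurain-like Gh_A13G216500, -1.48 for the vacuolar processing enzyme Gh_A07G023300, -0.85 for RD19A (Gh_A13G030200), -1.39 for the aspartic proteinase Gh_D08G224600 and 1.29 for ASPARTIC PROTEASE IN GUARD CELL 1 (Gh_D09G188900). From 0 to 1 DPA they were -4.07 for RD21B (Gh_A06G153500), -4.34 for the Lon homolog (Gh_D09G081300), -4.14 for the SUMO protease (Gh_D02G014600), -1.14 for Gh_A07G023300, -0.96 for RD19A and 1.12 for Gh_D09G188900. The Lon and SUMO protease values rest on 1 and 0 reads in Xu142fl at 1 DPA, and their size depends on the prior count of the fit. With DESeq2 factors of the listed genes the changes from -1 to 1 DPA of Gh_A07G023300, RD19A and Gh_D08G224600 went the other way.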

How the results depend on the processing

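Under the deposited scaling no member named by the rule changed direction in any alternative run. With DESeq2 factors of the listed genes the log2 ratio turned to -0.025 for Gh_D09G188900 at -1 DPA, 0.39 for Gh_A13G030200 at 0 DPA, and, at 1 DPA, 0.0022 for Gh_A06G206500, 0.011 for Gh_A13G216500 and 0.08 for Gh_A05G026700 (0.04 with TMM). Gh_D05G079900 (0.12), Gh_D11G153400 (0.16) and Gh_D05G242400 (0.01) also turned at 1 DPA. These factors left 0 higher members at -1 DPA, where the aspartic, subtilisin, vacuolar processing and unclassed groups each had 0 higher. TMM and DESeq2 factors left 4 lower members at 0 DPA (1 cysteine, 1 vacuolar processing, 0 unclassed) and 25 at 1 DPA (3 aspartic, 0 metalloprotease, 5 serine carboxypeptidase, 4 unclassed), and among all listed genes the share higher became 43.2% at -1 DPA (DESeq2), 62.3% (TMM) and 74.4% (DESeq2) at 0 DPA, and 59.2% and 60.2% at 1 DPA. Which scaling is right was not tested, because only listed genes were used.

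At 0 DPA 1 higher member was kept by edgeR, by edgeR with the replicate block, and by limma with either pseudocount (1 aspartic and 0 subtilisin in both edgeR fits), and limma with 0.1 kept 4 lower; edgeR alone kept 1 lower cysteine protease. At 1 DPA limma with 0.1 kept 17 higher; edgeR kept 0 higher Clp or Lon, 1 cysteine and 1 inhibitor, and the replicate block 1 inhibitor. A mean of at least 10 left 0 higher Clp or Lon, and Pfam classes gave 1 higher cysteine protease at -1 DPA. Without 1 library edgeR called 0 to 2 higher and 5 to 7 lower at 0 DPA, and 12 to 21 higher and 46 to 50 lower at 1 DPA, the fewest higher without Xu142fl replicate 3. The higher count was 0 at 0 DPA without any 1 Xu142fl library or Xu142 replicate 2 and 1 without Xu142 replicate 1, and at 1 DPA it was 15, 14 and 12 without Xu142fl replicates 1, 2 and 3 and 16 without Xu142 replicate 3. Interactions from -1 to 1 DPA numbered 3 with limma and 3 to 5 without 1 library, and those from 0 to 1 DPA 3 to 6. The count of 3 came, from -1 DPA, without Xu142fl replicate 3 of -1 DPA or replicate 2 of 1 DPA, and, from 0 DPA, without Xu142fl replicate 1 of 0 DPA, Xu142fl replicate 2 or 3 of 1 DPA or Xu142 replicate 3 of 1 DPA.

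Same-numbered libraries correlated at -0.020 to 0.189, so the numbers were not taken as pairs. At 0 DPA each library correlated best with its own number, as a hint from the data. With the replicate block edgeR called 6 higher and 2 lower at -1 DPA, 1 and 7 at 0 DPA, and 25 and 50 at 1 DPA, and interactions of 5 from -1 to 1 DPA and 4 from 0 to 1 DPA. Few reads limit the Lon, SUMO protease and Clp genes.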
